A study of Rattus norvegicus with 15 samples.

Results

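The genes described here are a set of 10 called heat shock chaperones for short: 9 genes of the cytosolic and mitochondrial protein folding machinery and Hsf1, the transcription factor that drives many of them. They are Hsf1, Hspa8, Hsp90aa1, Hsph1, Hspb1, Hspd1, Hspe1, Dnaja1, Dnajb1 and Bag3. The set is defined by gene symbol, picked as chaperones driven by HSF1, and was drawn up with earlier results of these data known. All 10 are among the 14506 named genes measured. Each gene was read from the probe set annotated to its symbol, and from the one with the highest mean over all arrays where there were several (8 for Hspa8 and 2 for Hspd1). Liver RNA of 15 male Sprague-Dawley rats was hybridised to Affymetrix Rat Gene arrays. Each rat had an array of its own, and the 5 groups hold 3 rats each, lettered A, B and C. Control rats were born to mothers fed normally through pregnancy and nursing. The IUCR (intra-uterine calorie restriction) rats had mothers whose calories were cut by 50% from embryonic day 11 to 21. The IPCR rats (intra-uterine and post-natal calorie restriction) had mothers restricted over the same days of pregnancy and again from day 1 to day 21 after birth. Livers of control and IPCR rats were taken at day 21, at the end of nursing, and livers of control, IUCR and IPCR rats at day 450. The arrays hold whole liver, and the replicates are littermates whose litters are not given, so a p-value here weighs only the scatter among these rats.

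Chaperones bind unfolded or newly made proteins and help them fold, and their genes are a classic example of transcription switched on by heat and other stress that damages proteins. HSF1, the factor named heat shock factor 1, is held inactive by chaperones in resting cells. When unfolded protein draws the chaperones away it forms trimers and binds heat shock elements, promoter sequences built of inverted repeats of a short GAA unit. In liver the body temperature rhythm, feeding and hormones are known to move several of these genes in the course of a normal day. Hspa8 encodes HSC70, the constitutive HSP70, Hsph1 its nucleotide exchange factor, and Dnaja1 and Dnajb1 the J-domain partners that load substrates onto it. Bag3 encodes an HSP70 co-chaperone that steers substrates to autophagy, Hspb1 a small heat shock protein that holds unfolded proteins in solution, and Hsp90aa1 the inducible HSP90. Hspd1 and Hspe1 encode the mitochondrial chaperonin and its lid.

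Values are log2 intensities after robust multi-array average (RMA) normalization, so a difference of 1 is 2-fold, and levels are compared only within a gene. A gene was said to change when its limma p, adjusted by Benjamini and Hochberg over all 14506 genes, was below 0.05. The median standard error (SE) of a difference was 0.096 log2. Array medians ran from 7.11 to 7.24. Alb, the albumin gene of hepatocytes, had group means of 14.48 to 14.73. Control replicate C at day 21 stood apart in Alb, at 13.99 against 14.72 in both other rats, and in the mean of 8 hepatocyte markers, at -0.35 against 0.12 and 0.14 relative to each gene's mean over all arrays. In level, 9 of the chaperones lay above the median gene level, and Hspb1 did not. Of the inducible HSP70 genes, Hspa1a and Hspa1b are not analysed here. The probe sets of Hspa8 may share probes with near-identical copies of the gene.

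Promoter sequences from RefSeq (assembly GRCr8), 250 bases before to 50 after each start site, were at hand for 8 of the 10 genes, all except Hsf1 and Hsp90aa1. They were searched on both strands for a heat shock element of 2 units (GAANNTTC or TTCNNGAA) and of 3 units (the first of these followed by NNGAA, or the second followed by NNTTC), the longer form containing the shorter. All 8 windows held the 2-unit form, against 15.4% of the 27457 windows in the table and 12.8% of those of measured genes. The 3-unit form was in 5 of the 8, those of Hspa8, Hsph1, Hspd1, Hspe1 and Dnaja1, against 0.736% of windows and 0.535% of those of measured genes. Hspd1 and Hspe1 hold the same stretch, which is counted in both. The genes were picked as driven by HSF1, so such counts follow from the choice and are no result of these data. The 250 bases upstream of Hspa8 and Hsph1 and the element shared by Hspd1 and Hspe1 are shown because they hold 3-unit elements before the start; the elements are in capitals, 5′ to 3′ along the gene. They lie at chr8:50080264-50080513 (plus strand) for Hspa8, chr12:10427118-10427367 (plus strand) for Hsph1 and chr9:64084262-64084279 for the shared element, given on the plus strand along Hspe1 and on the minus strand along Hspd1.
Hspa8: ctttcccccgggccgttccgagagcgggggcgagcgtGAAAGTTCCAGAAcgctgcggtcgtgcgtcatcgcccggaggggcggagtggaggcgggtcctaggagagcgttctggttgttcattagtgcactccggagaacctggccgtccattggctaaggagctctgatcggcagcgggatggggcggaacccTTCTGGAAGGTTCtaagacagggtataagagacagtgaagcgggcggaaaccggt
Hsph1: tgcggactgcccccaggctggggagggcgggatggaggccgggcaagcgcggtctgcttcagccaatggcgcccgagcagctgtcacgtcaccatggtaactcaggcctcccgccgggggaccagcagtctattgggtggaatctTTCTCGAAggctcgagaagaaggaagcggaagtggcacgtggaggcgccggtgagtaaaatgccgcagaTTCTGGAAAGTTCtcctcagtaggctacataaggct
Hspe1: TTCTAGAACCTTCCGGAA
Hspd1: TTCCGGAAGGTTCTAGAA
The Hspa8 promoter had 3-unit elements 213 to 201 and 55 to 43 bases before its start. The Hsph1 promoter had a 3-unit element 36 to 24 bases before the start and a 2-unit element at 105 to 98. The shared element lies 65 to 48 bases before the Hspe1 start and 242 to 225 bases before the Hspd1 start of the promoter table. These starts are 290 bases apart on opposite strands, and the RefSeq span of Hspd1, which takes in further transcripts, reaches past the element. Only 2-unit elements were found upstream of Hspb1 (GAAGTTTC and GAACCTTC), Dnajb1 (GAAGGTTC) and Bag3 (GAAGTTTC), and Dnaja1 had GAAGATTC upstream and its 3-unit match, GAACTTTCCAGAA, just past the start. A match describes these letters and was not tested for binding.

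The step from day 21 to day 450 in control rats gave more calls among these genes than any of the 5 other comparisons. Hspb1, Bag3, Hsp90aa1, Hsph1, Dnajb1 and Hspa8 rose, by 1.33-fold to 2.77-fold. Hsf1, Dnaja1 and both mitochondrial chaperonin genes did not pass the test. Thus 6 of the 10 were higher and 0 lower, where 9.89% of all genes were called, 4.67% higher and 5.22% lower. The median difference was 0.48 log2 over the 10 genes and 0.01 over all genes.

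Hspb1 read 6.55, 6.47 and 6.54 in the control livers of day 21 and 8.54, 7.65 and 7.79 in those of day 450. The older rats all lay more than 1 log2 unit above the younger ones, with replicate A highest. The difference was 1.47 log2 (SE 0.21, 95% interval 1.02 to 1.92, 2.77-fold, limma adjusted p = 0.000293). Since the day 21 level is near the lower quartile of the arrays (6.0 to 6.16), part of that signal may be background and the fold an underestimate.

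Bag3 read 8.33, 8.50 and 8.23 at day 21 and 9.02, 9.14 and 9.20 at day 450. The groups lay well apart, with SDs of 0.13 and 0.09 around a difference of 0.77 log2 (SE 0.11, adjusted p = 0.000307). Hsph1 went from 9.0, 8.94 and 8.96 to 9.96, 9.32 and 9.63. Its young controls were almost alike and its old controls spread over more than 0.6 log2, yet the groups did not overlap, and the difference was 0.67 log2 (SE 0.13, adjusted p = 0.00436). Dnajb1 read 8.54, 8.59 and 8.44 at day 21 and 9.24, 8.93 and 9.01 at day 450, a difference of 0.54 log2 (SE 0.10, adjusted p = 0.00155). These 3 genes and Hspb1 passed whichever single array was left out.

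HSP90 and HSC70, core chaperones of the cytosol, rose too, with less certainty. Hsp90aa1 read 10.54, 10.49 and 10.69 at day 21 and 11.60, 10.96 and 11.38 at day 450, a difference of 0.74 log2 (SE 0.19, adjusted p = 0.0186). Hspa8 read 13.17, 13.17 and 13.06 at day 21 and 13.73, 13.33 and 13.57 at day 450, a difference of 0.41 log2 (SE 0.11, adjusted p = 0.0267). Neither gene's groups overlapped, and in both it was old control replicate B that came closest to the young rats. The 8 Hspa8 probe sets gave differences of 0.35 to 0.47 log2. The Hspa8 call was lost without any 1 of the young controls (A 0.0581, B 0.0581, C 0.103) or without old control A (0.114) or C (0.0779), and the Hsp90aa1 call without young control A (0.0583) or B (0.0680) or old control A (0.0849) or C (0.0630), all adjusted p from limma. Hspa8 also did not pass after quantile normalization (0.33 log2, adjusted p = 0.0847) or with only the control arrays fitted (adjusted p = 0.0522).

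The remaining 4 genes gave small differences. Dnaja1 read 10.52, 10.65 and 10.59 at day 21 and 10.92, 10.81 and 10.66 at day 450, which do not overlap but differ by only 0.21 log2 (interval -0.02 to 0.44, adjusted p = 0.275). Hsf1 gave -0.07 log2 (SE 0.08, adjusted p = 0.698), with overlapping groups. This is the message of the factor and does not measure its activity, which was not tested. Hspe1 read 10.37, 10.25 and 10.26 at day 21 and 10.18, 10.07 and 9.88 at day 450, a difference of -0.25 log2 (interval -0.43 to -0.08, adjusted p = 0.0654). Hspd1, on the other side of the shared promoter, gave -0.08 log2 (SE 0.07, adjusted p = 0.575). Its second, dimmer probe set gave -0.49 log2, and the mean of both probe sets would be called lower (-0.28 log2, adjusted p = 0.0275). After quantile normalization Hspe1 would also be called lower (-0.23 log2, adjusted p = 0.0479), as it would without old control A (-0.32 log2, adjusted p = 0.032). With only genes above the median level fitted, 1 chaperone was called lower. Counting groups that do not overlap, 7 of the 10 genes were higher and 2 lower, where 28.0% of all genes did not overlap, 14.3% higher and 13.8% lower.

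**Figure D1:**
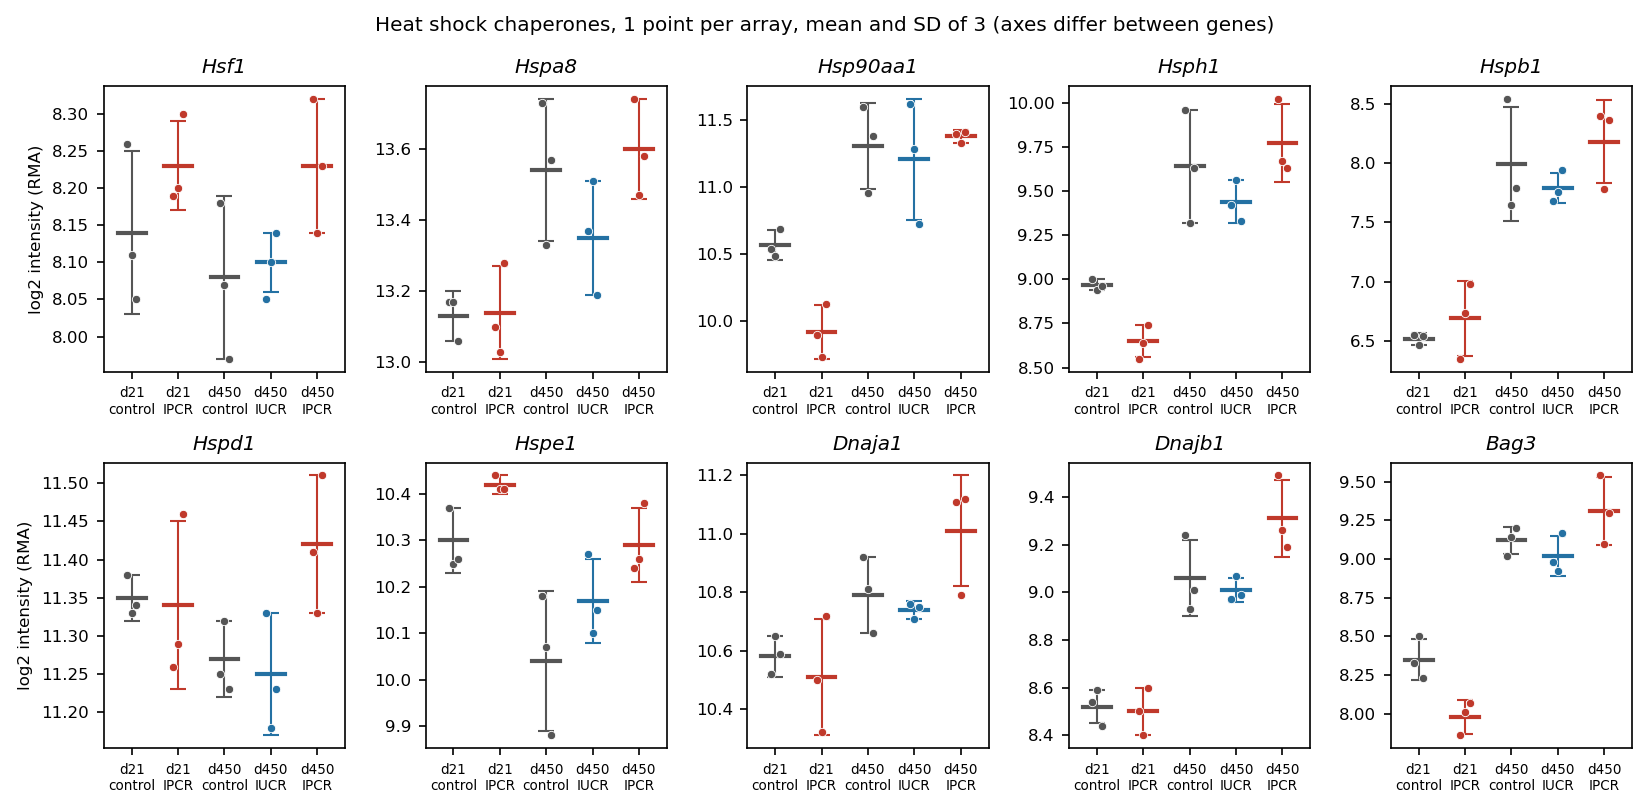
Log2 RMA intensity of each chaperone gene on each of the 15 arrays, in 5 groups of 3, with bars for the group mean and SD; the axes differ between genes. Hspb1 lies at 6.35 to 6.98 on the 6 day 21 arrays and at 7.65 to 8.54 on the 9 day 450 arrays, and Hspd1 stays between 11.18 and 11.51 throughout.

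Other chaperones were read from lists made with earlier results of these data known. Of 19 further cytosolic chaperones, 5 rose and 1 fell, with a median of 0.18 log2, where 4.67% of all genes rose and 5.22% fell. The risers were Hspb8, a small heat shock protein that works with BAG3 (0.76 log2, adjusted p = 0.00103), Dnaja2, another J-domain partner of HSC70 (0.44 log2, adjusted p = 0.00625), Hspa4l, Dnajb2 and the constitutive Hsp90ab1 (0.33 log2). The gene that fell was Serpinh1, the collagen chaperone HSP47, by 1.12 log2 (SE 0.09, adjusted p = 6.24e-07). In the same comparison 5 of 6 stellate cell markers fell as well, with a median of -0.98 log2. Their part in the Serpinh1 difference was not tested, and in bulk liver fewer cells of a type and less RNA per cell cannot be told apart.

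Of 19 HSP70 and HSP90 co-chaperones 0 were called with age (median -0.00 log2, 3 with an unadjusted p below 0.05), the nearest being Fkbp5, an HSP90-bound glucocorticoid response gene (-0.64 log2, adjusted p = 0.0629). Of 19 chaperones and response genes of the endoplasmic reticulum 0 were called (median 0.03 log2, 2 with an unadjusted p below 0.05). For comparison, 2343 of the 10433 measured genes whose promoter lacked a 2-unit heat shock element had an unadjusted limma p below 0.05 with age. Among 8 subunits of the cytosolic chaperonin TRiC only Tcp1 rose (0.43 log2, adjusted p = 0.0314). Among 9 other mitochondrial chaperones and proteases Clpx, the unfoldase of the matrix protease, fell by 1.02 log2 (adjusted p = 9.66e-05), and Dnaja3 fell by 0.34 log2 (adjusted p = 0.0476). Hsf4, another heat shock factor, rose by 0.56 log2 (adjusted p = 0.000414). The shares in the lists were not tested against each other or against the 4.67% higher and 5.22% lower of all genes.

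Other genes with a 3-unit heat shock element in the promoter were called with age at a rate near that of all genes. Of 59 further measured genes with one, 1 rose (Acot7, 0.45 log2) and 3 fell (Serpinh1, Hnrnpa2b1 and Or14j1), with a median of 0.03 log2. Over all genes 4.67% rose and 5.22% fell. Of the 5 chaperones with the 3-unit form Hspa8 and Hsph1 rose, and of the 3 with the 2-unit form alone, Hspb1, Dnajb1 and Bag3, all rose. Hspd1 and Hspe1, which were not called, share their element. The part of the elements in the age difference was not tested.

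Clock and temperature-linked genes also differed with age. Of 10 clock output and repressor genes of the PER/DBP arm, 8 rose (median 0.90 log2, Dbp by 2.84 log2), and of 5 genes of the BMAL1 arm 3 fell, Bmal1 itself by 2.48 log2. The cold-inducible RNA-binding protein gene Rbm3 fell by 0.37 log2 (adjusted p = 0.044). Among immediate early genes Jun rose by 1.43 log2 and Egr1 fell by 1.34 log2. The hour of collection is not given in the sources used here, and the part of time of day in the age difference of the chaperones was not tested. Hepatocyte markers had a median of 0.01 log2 with 0 of 8 called, and the 4 smooth muscle markers, tested because muscle is rich in Hspb1, a median of 0.02 log2 with 0 called (Myh11, Actg2, Cnn1 and Acta2). Markers of endothelium, macrophages, bile duct, lymphocytes, neutrophils, red cell precursors and fat cells had 0 calls with age.

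**Figure D2:**
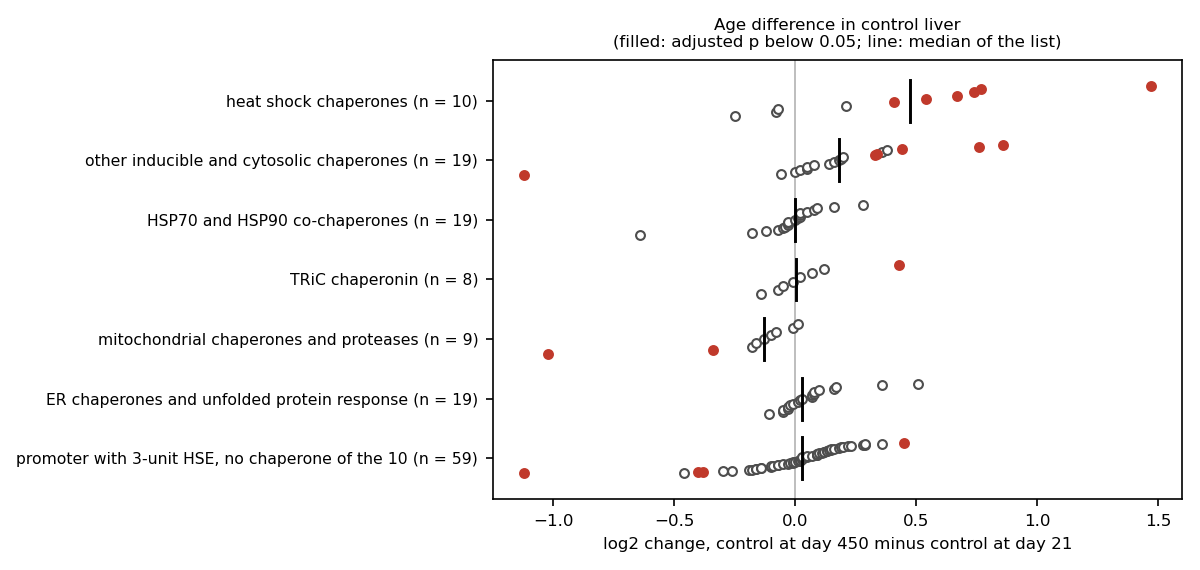
Difference between control livers of day 450 and day 21 (log2) for each measured gene of 7 lists, 1 point per gene, filled where the adjusted p was below 0.05, with a line at the list's median. The heat shock chaperones have a median of 0.48 and the 59 other genes with a 3-unit heat shock element (HSE) in the promoter a median of 0.03.

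At day 21, at the end of nursing under restriction, IPCR livers had less Hsp90aa1 and Bag3 than controls, and the other 8 genes did not pass the test. Hsp90aa1 read 10.54, 10.49 and 10.69 in controls and 9.90, 9.73 and 10.13 in IPCR rats. All IPCR rats lay below all controls, and the difference was -0.65 log2 (SE 0.19, interval -1.05 to -0.26, 1.57-fold lower, adjusted p = 0.0375). Bag3 read 8.33, 8.50 and 8.23 in controls and 7.86, 8.01 and 8.07 in IPCR rats, again without overlap, a difference of -0.38 log2 (SE 0.11, interval -0.61 to -0.14, 1.3-fold lower, adjusted p = 0.0429). So 2 of 10 were lower and 0 higher, where 9.62% of all genes were called, 6.99% lower and 2.63% higher, and the median was -0.02 log2 against 0.02 for all genes.

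Both calls were close to the threshold. Hsp90aa1 did not pass after quantile normalization (-0.53 log2, adjusted p = 0.0876), with trend and robust moderation (adjusted p = 0.0509), with the arrays' interquartile range as a covariate (adjusted p = 0.10), or without young control A (0.0835), B (0.0748) or C (0.123) or IPCR replicate A (0.114) or B (0.154). Bag3 did not pass with that covariate (-0.33 log2, adjusted p = 0.124) or without any 1 of 7 arrays (adjusted p 0.0525 to 0.176). With a block on replicate letter 1 chaperone was called lower. Of all genes called at day 21, 27.4% were higher as deposited, 17.3% after each array was centred on its median and 40.4% after quantile normalization. The interquartile ranges of the arrays were 2.26 to 2.30 log2 in controls and 2.15 to 2.28 log2 in IPCR rats.

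Hsph1, the exchange factor, read 9.0, 8.94 and 8.96 in controls and 8.55, 8.64 and 8.74 in IPCR rats. These values do not overlap, but the difference of -0.32 log2 (interval -0.61 to -0.03) had an adjusted p of 0.167, and it passed when the day 21 arrays were fitted alone (adjusted p = 0.0304). Hspe1 read 10.37, 10.25 and 10.26 in controls and 10.44, 10.41 and 10.41 in IPCR rats, without overlap, a difference of 0.12 log2 (adjusted p = 0.418), which would be called at 0.24 log2 after quantile normalization (adjusted p = 0.0438). In all, 3 genes were lower and 1 higher without overlap, where 29.9% of all genes did not overlap. The HSC70 and J-domain genes were within 0.1 log2 of control: Hspa8 by 0.00, Dnajb1 by -0.02 and Dnaja1 by -0.07 log2. Hspd1 differed by -0.01, Hsf1 by 0.08 and Hspb1 by 0.17 log2, the last with IPCR rats spread from 6.35 to 6.98.

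Some genes of the chaperonin TRiC and some HSP70 and HSP90 co-chaperones fell in the same livers. All 8 TRiC subunits, which fold actin and tubulin, had negative differences (median -0.29 log2), and 3 of them fell: Cct8 by 0.50 log2 (adjusted p = 0.00139), Cct2 by 0.39 log2 (adjusted p = 0.0101) and Cct5 by 0.29 log2 (adjusted p = 0.0472). Of 19 co-chaperones, 14 of them with negative differences, 3 fell and 0 rose, namely St13, the HSC70-interacting protein HIP (-0.44 log2, adjusted p = 0.00147), Cacybp (-0.52 log2, adjusted p = 0.00278) and Sugt1, an HSP90 partner (-0.31 log2, adjusted p = 0.0356). Among 19 other cytosolic chaperones Hsp90ab1 fell by 0.34 log2 (adjusted p = 0.0299) and Hspa4 by 0.27 log2 (adjusted p = 0.0288), Serpinh1 by 0.29 log2 (adjusted p = 0.0448), and Dnajb4 rose by 0.55 log2 (adjusted p = 0.0339). Hsf2, a heat shock factor active in development, read 9.19, 9.01 and 8.94 in controls and 8.57, 8.51 and 8.46 in IPCR rats. It fell by 0.53 log2 (SE 0.10, adjusted p = 0.00271), while Hsf1 did not pass. In the endoplasmic reticulum list 1 of 19 fell, Dnajc3, the inhibitor of the kinase PERK (-0.46 log2, adjusted p = 0.0093). In the mitochondrial list Clpx fell by 0.75 log2 and Yme1l1 by 0.48 log2, and Afg3l2 rose by 0.26 log2. Of the 59 other genes with a 3-unit heat shock element 6 fell and 0 rose, with a median of 0.00 log2. Over all genes 6.99% were called lower and 2.63% higher, and the shares in these lists were not tested against them.

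Genes linked to temperature and time of day moved in the same livers. Rbm3, whose message rises when cells are cooled, read 9.07, 9.13 and 9.07 in controls and 10.07, 10.04 and 10.14 in IPCR rats, a rise of 0.99 log2 (SE 0.11, adjusted p = 4.6e-05). Its relative Cirbp gave 0.32 log2 (adjusted p = 0.0915). The PER/DBP clock genes rose in 9 of 10 cases (median 0.93 log2), 4 of 5 BMAL1-arm genes fell (median -0.55 log2), and Egr1 fell by 1.70 log2. Of 6 endothelial markers 4 fell too (median -0.42 log2), their mean relative to all arrays running from -0.10 to 0.23 in controls and from -0.58 to -0.13 in IPCR rats. Among the other marker lists 1 hepatocyte and 1 bile duct marker rose and 1 stellate cell marker fell. All 7 macrophage markers had negative differences (median -0.31 log2), 4 of them with an unadjusted limma p below 0.05 and 0 called. For comparison, 2368 of the 10433 measured genes whose promoter lacked a 2-unit heat shock element reached that unadjusted level at day 21. The part of the cold-inducible, clock, endothelial and macrophage genes in the lower Hsp90aa1 and Bag3 was not tested.

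**Figure D3:**
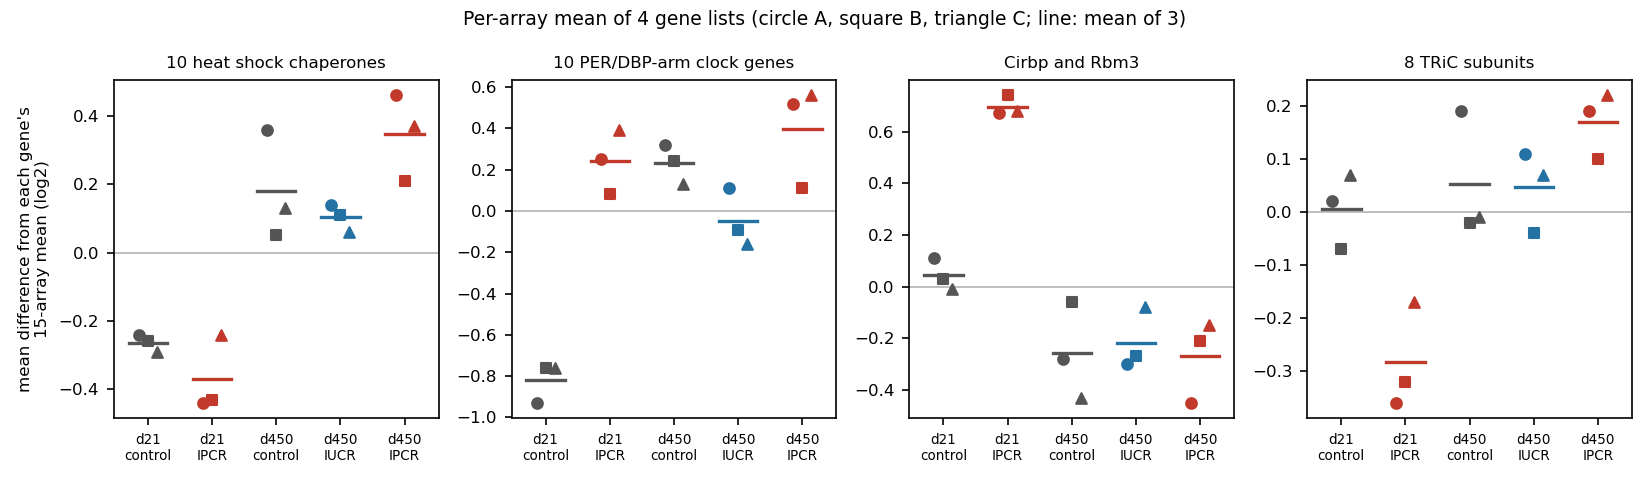
Mean over each list of the difference (log2) between a gene's value and its 15-array mean, 1 point per array with the replicate letter as its shape and a line at the group mean, for the heat shock chaperones, 10 PER/DBP-arm clock genes, the cold-inducible pair Cirbp and Rbm3, and 8 TRiC subunits; the vertical scales differ. The chaperone mean is -0.44 to -0.24 on the 6 day 21 arrays and 0.05 to 0.46 on the 9 day 450 arrays, and the cold-inducible pair is at 0.67 to 0.74 in IPCR rats of day 21 and at most 0.11 elsewhere.

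At day 450 IUCR livers, restricted before birth only, could not be told from controls in any of the 10 genes. The differences ran from -0.20 to 0.13 log2 with limma adjusted p of 0.738 to 0.965, and every pair of groups overlapped, where 11.2% of all genes did not. Calls were 0 among the chaperones and 0 of all genes (0%), and an unadjusted p below 0.05 was reached by 0 chaperones and 7.25% of genes. In sign, 8 of the 10 differences were negative (median -0.08 log2, -0.01 for all genes), but 4 of 10 were without control replicate A. Hsp90aa1 read 11.62, 11.29 and 10.73 in IUCR rats and 11.60, 10.96 and 11.38 in controls, so both groups spanned more than 0.6 log2. The widest interval was that of Hspb1, -0.65 to 0.25 log2 around -0.20, and that of Hspa8 was -0.42 to 0.05 around -0.19.

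IPCR rats of day 450, restricted before birth and during nursing, had values above those of controls in all 10 genes, but none passed the test. Differences were 0.06 to 0.25 log2 (adjusted p 0.211 to 0.887), with a median of 0.17 log2 against 0.02 for all genes, of which 55.1% were positive. Positive differences were also all there was in 3 other chaperone lists, with 0 calls: 19 of 19 endoplasmic reticulum genes (median 0.15 log2), 9 of 9 mitochondrial genes (0.13 log2) and 8 of 8 TRiC subunits (0.12 log2). Of the other cytosolic chaperones 9 of 19 were positive, and of the co-chaperones 15 of 19. All 10 PER/DBP-arm clock genes (median 0.13 log2) and all 5 BMAL1-arm genes (0.22 log2) were positive too, with 0 calls. So were all 3 genes of other heat shock factors and their binding protein (0.18 log2). Immediate early genes were positive in 3 of 10. Calls over all genes were 5 (0.0345%). Hspe1 read 10.24, 10.26 and 10.38 in IPCR rats and 10.18, 10.07 and 9.88 in controls, which do not overlap, a difference of 0.25 log2 (interval 0.08 to 0.42). Dnajb1 read 9.49, 9.26 and 9.19 in IPCR rats and 9.24, 8.93 and 9.01 in controls, where replicate A of the controls lay inside the IPCR range, a difference of 0.25 log2 (interval 0.05 to 0.45). These were the 2 genes with an unadjusted p below 0.05, a level reached by 14.8% of all genes. Groups did not overlap for Hspe1 and Hspd1 alone, where 17.7% of all genes did not overlap, 12.0% higher and 5.76% lower. The count of positive differences was 9 of 10 after quantile normalization, 9 of 10 with the interquartile range as a covariate and 7 of 10 without control replicate B, the lowest control in 5 of the cytosolic genes named above.

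IPCR against IUCR at day 450 asks what restriction during nursing adds to restriction before birth, and it uses the same IPCR arrays as the comparison with controls. All 10 chaperones were higher in IPCR than in IUCR rats, by 0.12 to 0.39 log2, and again none passed the test after adjustment (0.449 to 0.877). An unadjusted p below 0.05 was reached by 6 of the 10 and by 7.47% of all genes, and adjusted calls were 6 of all genes (0.0414%). The median was 0.26 log2, against 0.02 over all genes, of which 57.9% were positive. Leaving out each array in turn kept the median between 0.17 and 0.32 log2, and the count of positive differences at 9 or 10. It was 10 of 10 after median centring and after quantile normalization. The 10 genes were read on the same arrays, and many moved together. Over the 9 day 450 arrays, pairs correlated at -0.08 (Hsp90aa1 and Bag3) to 0.94 (Hspa8 and Hsph1). Counts of genes, here and against controls, are therefore not counts of separate observations, and each group holds 3 rats.

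Dnajb1 read 9.49, 9.26 and 9.19 in IPCR and 8.97, 9.07 and 8.99 in IUCR rats. The groups did not overlap, and the difference was 0.31 log2 (SE 0.10, interval 0.10 to 0.51, adjusted p = 0.449). Hsph1 read 10.02, 9.67 and 9.63 against 9.42, 9.56 and 9.33, also without overlap, a difference of 0.33 log2 (SE 0.13, interval 0.05 to 0.62, adjusted p = 0.591). Dnaja1 read 11.11, 10.79 and 11.12 against 10.76, 10.71 and 10.75, where IPCR replicate B stood next to the IUCR rats and the other 2 well above them, a difference of 0.27 log2 (interval 0.04 to 0.50, adjusted p = 0.588). Hspd1 read 11.41, 11.33 and 11.51 against 11.33, 11.18 and 11.23, a difference of 0.17 log2 (interval 0.01 to 0.33, adjusted p = 0.626). Its dimmer probe set gave 0.04 log2, from 8.68, 8.71 and 8.94 against 8.91, 8.62 and 8.69, which overlap. Hsph1, Dnaja1, Dnajb1 and Hspd1, the last by its brighter probe set, were the 4 genes whose groups did not overlap, where 11.2% of all genes did not overlap, 7.85% higher and 3.32% lower.

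Bag3 read 9.54, 9.10 and 9.30 in IPCR and 8.98, 8.92 and 9.17 in IUCR rats, a difference of 0.29 log2 (interval 0.06 to 0.52, adjusted p = 0.554). Hspa8 read 13.74, 13.47 and 13.58 against 13.37, 13.51 and 13.19, a difference of 0.25 log2 (interval 0.01 to 0.48, adjusted p = 0.641). In both, IPCR replicate B lay inside the range of the IUCR rats. Hspb1 had the widest interval, -0.06 to 0.84 log2 around 0.39, with IPCR replicate B at 7.78 among IUCR rats at 7.68 to 7.94. Hsp90aa1 gave 0.17 log2 (interval -0.23 to 0.57), its IUCR values running from 10.73 to 11.62. Hsf1 gave 0.13 and Hspe1 0.12 log2.

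The mean of the chaperones over their own 15-array means was 0.46, 0.21 and 0.37 log2 in IPCR rats A, B and C, 0.14, 0.11 and 0.06 in IUCR rats, and 0.36, 0.05 and 0.13 in controls. IPCR rats A and C, and control A, were thus the high arrays, and IPCR replicate B lay below control A. The PER/DBP clock genes were at 0.52, 0.11 and 0.56 log2 in IPCR rats, at 0.11, -0.09 and -0.16 in IUCR rats and at 0.32, 0.24 and 0.13 in controls. IPCR replicate B was thus the lowest IPCR array in both sets. IPCR A and C and control A were the highest arrays in both, and IUCR rats fell from A over B to C in both. IPCR A and C changed places between the sets, as did controls B and C. IPCR B lay above controls B and C in the chaperones and below them in the clock genes. All 10 of these clock genes were higher in IPCR than in IUCR rats, 8 of them with an unadjusted p below 0.05 and 0 after adjustment (median 0.44 log2), where 7.47% of all genes reached that unadjusted level. Of 5 BMAL1-arm genes 4 were lower and 1 higher (median -0.18 log2, 0 called). At day 21 the PER/DBP genes were higher in IPCR rats than in controls (median 0.93 log2), while the chaperones had a median of -0.02 log2. The interquartile range of the arrays was 2.36, 2.29 and 2.45 log2 in IPCR rats, 2.33, 2.27 and 2.38 in IUCR rats and 2.31, 2.27 and 2.19 in controls. The part of the clock genes' timing in the chaperone differences was not tested. With the interquartile range as a covariate all 10 chaperones were still higher in IPCR than in IUCR rats.

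Chaperones of other compartments were read in the same way at day 450. The 8 TRiC subunits were all higher in IPCR than in IUCR rats (median 0.11 log2), 17 of 19 endoplasmic reticulum genes were (median 0.10 log2), and 14 of 19 other cytosolic chaperones were (median 0.12 log2), with 0 called in each list (unadjusted p below 0.05 in 2, 1 and 5 genes). That unadjusted level was reached by 7.47% of all genes. The mitochondrial list had 4 of 9 positive and a median of -0.00 log2, and the nearest gene to the threshold there was Clpx (-0.35 log2, adjusted p = 0.545). The 59 other genes with a 3-unit heat shock element had a median of 0.05 log2 and 0 calls.

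**Figure D4:**
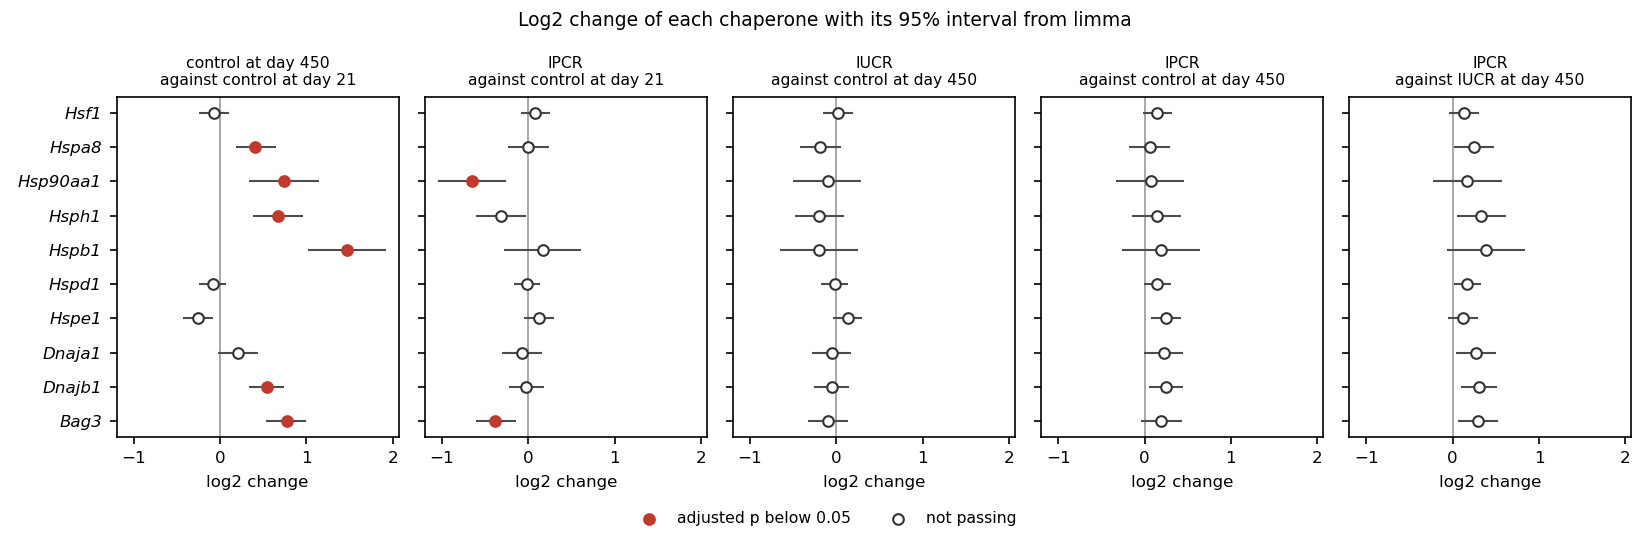
Log2 difference of each chaperone gene in 5 comparisons with its 95% interval from limma, filled where the adjusted p was below 0.05. Filled points are 6 genes in the age comparison and Hsp90aa1 and Bag3 in IPCR against control at day 21; in IPCR against IUCR at day 450 all points lie right of 0, between 0.12 and 0.39.

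Whether the IPCR difference itself differed between the ages was tested as the effect at day 450 minus that at day 21. Bag3 alone passed, at 0.57 log2 (SE 0.16, interval 0.23 to 0.90, adjusted p = 0.0361), from -0.38 log2 at day 21 and 0.19 log2 at day 450. That is 1 of 10 genes higher, where 8.20% of all genes were called, 6.56% higher and 1.64% lower. Hsp90aa1 gave 0.72 log2 (SE 0.26, adjusted p = 0.105) and Hsph1 0.46 log2 (SE 0.19, adjusted p = 0.152). The Bag3 call was lost after quantile normalization (0.48 log2, adjusted p = 0.0720), with the interquartile range as a covariate (0.45 log2, adjusted p = 0.371) and without any 1 of 8 arrays (adjusted p 0.0628 to 0.101). It was also lost with a block on replicate letter. All 10 differences were positive with a median of 0.22 log2, but 8 of 10 were positive after quantile normalization and 5 of 10 with the interquartile range as a covariate. Of all genes called, 80.0% were higher as deposited, 89.8% after centring and 65.6% after quantile normalization. Among the other lists 4 of 8 TRiC subunits passed as higher, Cct8 at 0.56 log2 (adjusted p = 0.00985), and so did the co-chaperones St13 (0.58 log2), Cacybp (0.69 log2) and Fkbp4 (0.61 log2), the chaperone Hspa4 (0.42 log2) and the factor Hsf2 (0.72 log2, adjusted p = 0.00647). Clpx (0.92 log2) and Yme1l1 (0.61 log2) of the mitochondrial list and Dnajc3 (0.62 log2) of the endoplasmic reticulum list passed as higher too. Of the 59 other genes with a 3-unit heat shock element 7 passed as higher and 0 as lower. Rbm3 passed as lower, at -1.10 log2. Markers and clock genes passed in this comparison too: 3 of 6 endothelial markers were higher (Kdr 0.86, Eng 0.67 and Tek 0.63 log2), 2 of 6 stellate cell markers were higher (Lrat 0.98 and Pdgfrb 0.86 log2) and 1 of 4 bile duct markers was lower (Krt19, -0.88 log2). Of the clock genes 4 of 5 in the BMAL1 arm were higher and 5 of 10 in the PER/DBP arm lower. Their part in the Bag3 difference was not tested.

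The order of the 5 group means was much the same in the cytosolic genes. In Hspb1, Hsp90aa1, Hsph1, Hspa8, Dnajb1, Bag3 and Dnaja1 the 3 day 450 groups stood above both day 21 groups, and IPCR was the highest of all. IUCR was below control in each of these 7 genes, by 0.20 log2 or less, which is within the spread of the arrays, and control replicate A was the highest control in 6 of them. At day 21 IPCR stood below control in Hsp90aa1, Hsph1, Bag3, Dnaja1 and Dnajb1, the last 2 within the spread. The mitochondrial pair had another order, with Hspe1 lowest in control rats of day 450 (10.04, SD 0.15) and highest in IPCR rats of day 21 (10.42, SD 0.02), and Hspd1 from 11.25 (IUCR, SD 0.08) to 11.42 (IPCR of day 450, SD 0.09). Hsf1 ran from 8.08 in control rats of day 450 to 8.23 in IPCR rats of either age, and no neighbours in its order differed beyond their spread.

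Genes that are no members but followed the chaperones across the 9 day 450 arrays were ranked by Pearson correlation with the mean of the 10 genes, as a description. The closest was Chordc1, which encodes an HSP90-binding protein, is 1 of the 19 other cytosolic chaperones above and has a 3-unit heat shock element in its promoter window (r = 0.97, Spearman rho 0.93, and r = 0.95 over the 7 arrays without IPCR A and C). Those 7 still hold control A, high in the chaperones and at 8.56 in Chordc1, where the rest lay at 8.14 to 8.32. Then came Usp54, Eif1ad, Erlin1 and Polr3b at 0.95, Kdelr2 and Nnmt at 0.94 and Nsun2 at 0.93. Over all genes the median r was 0.03 and the 99th percentile 0.83. Over the 6 day 21 arrays the same genes ranged from -0.55 (Usp54) to 0.96 (Kdelr2, the retrieval receptor of endoplasmic reticulum chaperones), and Chordc1 had 0.25. Arrays share their groups and their spread of intensities, and 9 points leave wide room for such values.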

How the data were processed

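Liver RNA, extracted with Trizol and RNeasy columns and labelled as biotinylated cRNA, was measured on 15 arrays. The deposited values are log2 intensities made by RMA in Affymetrix Expression Console, per the submitters' processing notes, with versions not given in the sources used here. Scan dates were not used. Of 29215 probe sets, 15310 have 1 gene symbol, 323 several and 13582 none in the platform annotation; those with 1 symbol were kept, at the probe set with the highest mean for 527 genes with several. Of 14506 genes, 14481 matched RefSeq by gene identifier and 0 symbols changed.

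Group means were fitted with limma 3.58.1 (R 4.3.3, lmFit and eBayes) over all 15 arrays, and p-values were adjusted by Benjamini and Hochberg within each of 6 comparisons. All tests are two-sided. The members and lists were chosen with earlier results of these data known. Named from each list were the 3 passing genes with the smallest p in a comparison, or 1 where none passed; Hspa4l, Dnajb2, Serpinh1 at day 21 and the genes with a 3-unit element were named after their values were seen. The fit was tested on simulated data. Alternatives were median centring, quantile normalization, a block on replicate letter, a fit of the compared groups alone, averaged probe sets, genes above the median level, trend with robust moderation, the interquartile range as a covariate, adjusted p below 0.10 and leaving out each array. The number of arrays, 3 per group, limits the precision.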

Additional observations from a re-analysis of the deposited data

Results flagged for a closer look

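The IPCR difference of Bag3 differed between the ages by a test of the difference itself, at 0.57 log2 (SE 0.16, limma adjusted p = 0.0361), with IPCR below control at day 21 and above it at day 450. The call was lost after quantile normalization (0.48 log2, adjusted p = 0.0720), with the interquartile range as a covariate (0.45 log2, adjusted p = 0.371) and without any 1 of 8 arrays (adjusted p 0.0628 to 0.101). It was also lost with a block on replicate letter. The day 21 difference passed the test and the day 450 difference did not.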

How the results depend on the processing

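No difference of a chaperone that was called reversed its sign under any alternative. Of the values of single chaperones under the alternatives other than leaving out arrays, 517 kept their side of the threshold, 10 lost a call and 7 gained one. Chaperones called at day 21 (2) became 1 with the replicate block, 1 with trend and robust moderation and 0 with the interquartile range as a covariate, and ran from 0 to 2 without 1 array. For the difference of the IPCR effects (1 called) they became 0 after quantile normalization, 0 with the replicate block, 2 when the compared groups were fitted alone and 0 with the covariate, and ran from 0 to 2 without 1 array. The age comparison (6 called) ran from 4 to 6 without 1 array, and had 7 with the mean of probe sets and 7 at adjusted p below 0.10. In both of these settings 6 were higher and 1 lower. The median of the chaperones moved from 0.22 to 0.05 (quantile) and 0.01 log2 (covariate) for the difference of effects, and from 0.17 to 0.06 log2 (covariate) for IPCR against control at day 450.

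Counts over all genes moved more. For IPCR against IUCR (6 called) they were 2 after centring, 0 after quantile normalization, 3 with the replicate block, 0 with only the groups compared, 1 with trend and robust moderation, 3 with the covariate, 10 at adjusted p below 0.10 and 0 to 14 without 1 array. For IPCR against control at day 450 (5) they were 0 with the replicate block, 2 with only the groups compared, 15 above the median level, 15 with trend and robust moderation, 0 with the covariate, 69 at adjusted p below 0.10 and 0 to 80 without 1 array. For the difference of effects (1189) they were 790 after quantile normalization, 112 with the covariate, 2009 at adjusted p below 0.10 and 606 to 1546 without 1 array. Without 1 array the day 21 count (1396) ran from 755 to 1500, the age count (1434) from 1025 to 1470 and the IUCR count (0) from 0 to 2. The causes were not tested. Replicate letters did not pair the samples: deviations of same-letter arrays correlated at -0.26 to 0.20 (30 pairs, 5 of them over 0.1). Hspb1 lies close to the lower quartile of the arrays at day 21, where signal over background limits its fold.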
